A study of Homo sapiens with 12 samples.

Results

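Tetraspanins are small membrane proteins that cross the membrane 4 times and gather integrins, proteases and other receptors into patches of the cell surface and of endosomes. A set of 10 was followed here: CD9, CD63, CD81, CD82, CD151, TSPAN3, TSPAN5, TSPAN6, TSPAN7 and TSPAN14. They were selected by gene name through the authors' deposited table of translational efficiency, the file that gives gene names for transcript identifiers. All 10 were present, each as 1 transcript, among the 19972 transcripts of the deposited counts, of which 10873 carried a name. The choice of genes was made with earlier results of the same comparison in view, so each test below describes the gene it belongs to and supports nothing about the family.

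The cells were human induced neurons, made by overexpressing the transcription factor Ngn2 in derivatives of the H1 human embryonic stem cell line. They were grown without glia to day in vitro 14. The medium, exchanged on day 5 and partly on day 10, held 2 µg/mL of doxycycline and 4 µM of cytosine arabinoside (AraC), a drug that kills proliferating cells. The genotypes were wild type at LLPH (wt/wt) and homozygous for an allele named Nterm (Nterm/Nterm). All cultures of both genotypes received Ngn2, doxycycline, AraC and, at harvest, cycloheximide at 100 µg/mL, which holds ribosomes on mRNA. Each genotype had 3 RNA-seq libraries of polyA RNA and 3 Ribo-seq libraries, which count footprints, the mRNA pieces covered by ribosomes. The sources used here do not say what the Nterm allele changes, how many clones were used or whether replicates came from separate cultures, and p-values therefore reflect library spread, which may be technical.

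RNA libraries held 18944427 to 25089790 counts and footprint libraries 12652833 to 16356419. Genotypes follow the sample titles; the genotype tag of the 6 Ribo-seq samples names the opposite one, and every direction for footprints rests on the titles, descriptions and column names. For the LLPH transcript itself, the wt/wt libraries held 676, 627 and 687 RNA counts against 611, 603 and 630 for Nterm/Nterm. These raw counts also reflect library depth. Scaled to a library of 1000000 counts, LLPH RNA was higher in Nterm/Nterm (29.4 to 31.7) than in wt/wt (27.2 to 28.7), without overlap. LLPH footprint counts were 88, 135 and 98 for wt/wt against 39, 22 and 36 for Nterm/Nterm. Scaled likewise, LLPH footprints were lower in Nterm/Nterm (1.71 to 3.12) than in wt/wt (6.72 to 7.92). Neuron markers were present in every library, with summed RNA levels of 13478 to 14413 CPM (counts scaled to a library of 1000000) in wt/wt and 15573 to 16794 in Nterm/Nterm. Markers of mesenchymal and epithelial cells were present as well, and their values are given after the tetraspanin results.

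As background, CD63 sits mainly in late endosomes and lysosomes and is carried on the vesicles these release. CD81 and its close relative CD9 lie mostly at the cell surface, CD82 is known as a suppressor of metastasis, and CD151 binds laminin-binding integrins. TSPAN5 and TSPAN14 belong to a subgroup that escorts the protease ADAM10 to the surface. TSPAN7 binds the scaffold protein PICK1, takes part in the traffic of AMPA-type glutamate receptors and is mutated in an X-linked intellectual disability. TSPAN6 has been linked to the sorting of amyloid precursor protein fragments in endosomes.

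In RNA, 5 of the 10 genes were lower in Nterm/Nterm at an adjusted p under 0.05 (CD9, CD81, CD82, CD151 and TSPAN6), 1 was higher (TSPAN3), and 4 did not pass (CD63, TSPAN5, TSPAN7 and TSPAN14). In footprints, 1 was lower (TSPAN6), 1 was higher (TSPAN3), and 8 did not pass. Of all transcripts tested, 10.6% were called lower and 7.25% higher in RNA (17.9% together), and 8.91% lower and 4.36% higher in footprints (13.3% together). The median log2 change over the 10 genes was -0.16 in RNA and 0.07 in footprints, against -0.00039 and 0.0083 over all transcripts tested. Calls come from edgeR's quasi-likelihood test with Benjamini-Hochberg adjustment over all transcripts, and each log2 change is the Nterm/Nterm level minus the wt/wt level, with its standard error (SE). The 3 libraries of each genotype did not overlap for 6 of the 10 genes in RNA and 3 of the 10 in footprints, where 36.2% and 30.7% of all transcripts tested showed such separation.

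**Figure D1:**
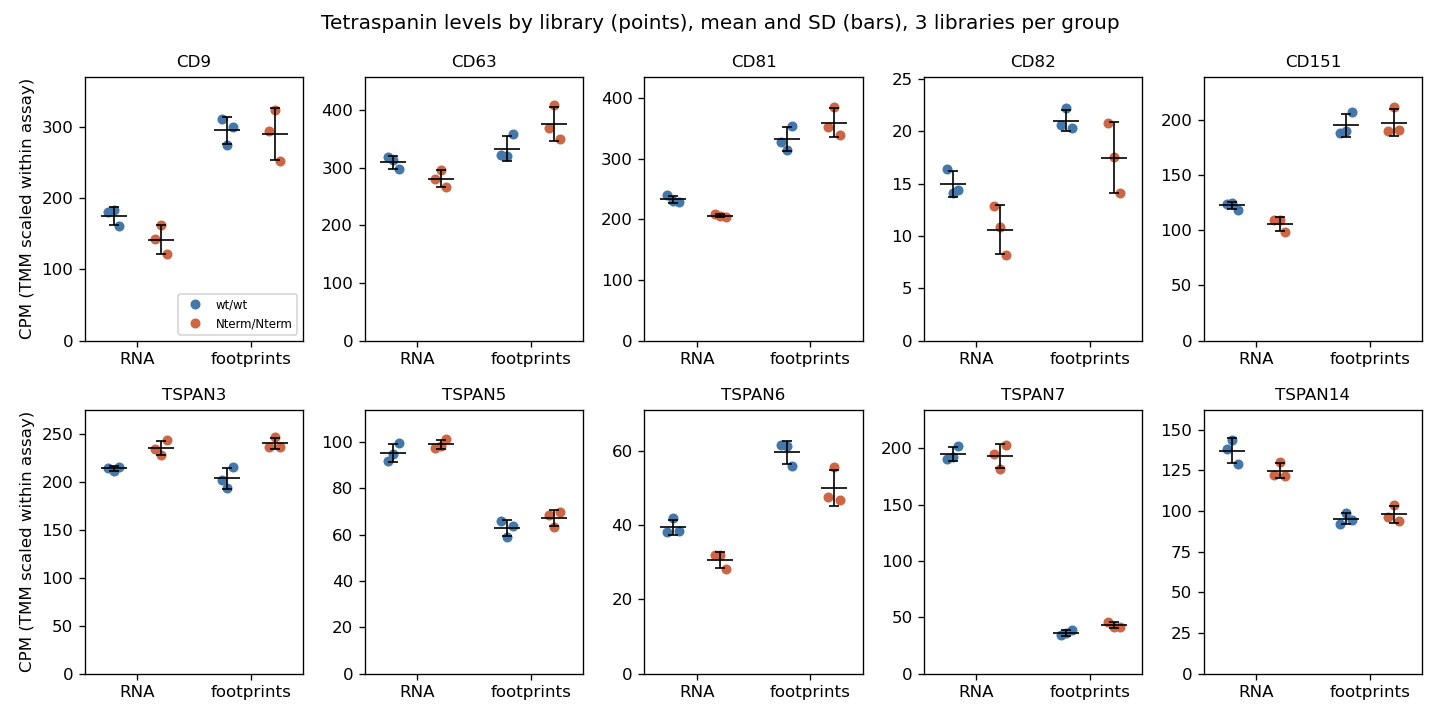
Levels of the 10 tetraspanin transcripts in CPM (vertical axes from 0, a scale of its own for each gene) by assay; points are libraries, blue for wt/wt and orange for Nterm/Nterm, and bars are the mean and SD of 3 libraries. The RNA points of CD63, CD81, CD82, CD151 and TSPAN6 lie lower in all Nterm/Nterm libraries than in any wt/wt library, whereas in footprints this holds for TSPAN6 only.

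CD63, the late endosomal member, had RNA levels of 319, 313 and 297 CPM in wt/wt and 281, 295 and 266 CPM in Nterm/Nterm. The Nterm/Nterm libraries were all below the wt/wt ones, by a log2 change of -0.14 ± 0.05 (SE), which did not pass the test (adjusted p = 0.057). Footprints were at 322, 319.5 and 358 CPM in wt/wt and 369, 408 and 349 CPM in Nterm/Nterm. Here the order was the other way and the groups overlapped, since Nterm/Nterm replicate 3 was below wt/wt replicate 3 (log2 change 0.17 ± 0.08, adjusted p = 0.142). The RNA difference of CD63 passed without wt/wt replicate 3 (adjusted p = 0.0392) or without Nterm/Nterm replicate 2 (adjusted p = 0.0253).

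CD81, the surface protein known as a receptor used by hepatitis C virus, had RNA levels of 239.7, 231 and 229 CPM in wt/wt and 208, 206 and 204 CPM in Nterm/Nterm. It fell by 11.7% in RNA, a log2 change of -0.18 ± 0.04 (adjusted p = 0.00979), with no overlap and little spread within either genotype. Its footprints, at 327, 315 and 354 CPM in wt/wt and 353, 386 and 339 CPM in Nterm/Nterm, overlapped between genotypes (log2 change 0.11 ± 0.07, adjusted p = 0.342). Without wt/wt RNA replicate 1, the RNA difference of CD81 no longer passed (log2 change -0.16, adjusted p = 0.0681).

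CD9, which acts in membrane fusion and cell adhesion, had RNA levels of 179.8, 183 and 160.3 CPM in wt/wt and 142, 162 and 121 CPM in Nterm/Nterm. The groups touched, because Nterm/Nterm replicate 2 lay just above wt/wt replicate 3, and the log2 change of -0.30 ± 0.09 passed the test (adjusted p = 0.0297). Its footprint levels were 311, 274 and 299 CPM in wt/wt and 294, 323 and 252 CPM in Nterm/Nterm. The highest and the lowest footprint level both belonged to Nterm/Nterm, and the log2 change was -0.03 ± 0.08 (adjusted p = 0.877). The RNA difference of CD9 did not pass without wt/wt replicate 1 (adjusted p = 0.124), wt/wt replicate 2 (0.125) or Nterm/Nterm replicate 1 (0.0756).

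CD151, the integrin partner, had RNA levels of 124, 125 and 118 CPM in wt/wt and 109, 109.5 and 98.1 CPM in Nterm/Nterm. It was lower in every Nterm/Nterm library, by a log2 change of -0.21 ± 0.05 (adjusted p = 0.0140). Footprints stood at 188, 190.0 and 206 CPM in wt/wt and 189.5, 211 and 191 CPM in Nterm/Nterm, and the groups overlapped (log2 change 0.02 ± 0.07, adjusted p = 0.906). Without wt/wt RNA replicate 1 or 2 the RNA difference of CD151 did not pass (adjusted p = 0.0723 and 0.0733).

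CD82 had the fewest counts of the 10 genes and the RNA change farthest from 0. Its RNA stood at 16.4, 14.1 and 14.4 CPM in wt/wt and 12.8, 10.8 and 8.17 CPM in Nterm/Nterm. The log2 change was -0.50 ± 0.14 (adjusted p = 0.0255), with the wt/wt libraries above all Nterm/Nterm libraries and Nterm/Nterm replicate 3 lowest. Footprints of CD82 were at 20.6, 22.2 and 20.3 CPM in wt/wt and 20.8, 17.6 and 14.1 CPM in Nterm/Nterm, where replicate 1 was within the wt/wt range (log2 change -0.28 ± 0.12, adjusted p = 0.134). The RNA difference did not pass without Nterm/Nterm replicate 3 (log2 change -0.34, adjusted p = 0.0582), wt/wt replicate 1 (adjusted p = 0.127) or wt/wt replicate 2 (0.0641), and the footprint difference passed without Nterm/Nterm replicate 1 (log2 change -0.42, adjusted p = 0.0378).

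TSPAN6 was lower in Nterm/Nterm in both assays. Its RNA levels were 38.2, 41.8 and 38.2 CPM in wt/wt and 31.9, 31.9 and 28.1 CPM in Nterm/Nterm, and its footprint levels were 61.5, 61.2 and 55.9 CPM in wt/wt and 47.6, 55.5 and 46.8 CPM in Nterm/Nterm. Neither assay showed overlap, although in footprints wt/wt replicate 3 and Nterm/Nterm replicate 2 were close. The log2 change was -0.36 ± 0.07 in RNA (adjusted p = 0.00464) and -0.25 ± 0.08 in footprints (adjusted p = 0.0374). The RNA difference passed in all 11 alternatives tried. In footprints it did not pass without wt/wt replicate 1 (adjusted p = 0.102), wt/wt replicate 2 (0.137), Nterm/Nterm replicate 1 (0.134) or Nterm/Nterm replicate 3 (0.160).

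The promoters of CD82 and TSPAN6, with the RNA changes farthest from 0, are shown beside that of TSPAN5, whose RNA did not pass the test. The choice was made after the values were seen, and no measurement of this study was placed on these sequences. They are the 150 bases before a transcript start in RefSeq, given 5′ to 3′ on the gene's strand on GRCh38.p14, whereas the submitters' processing notes name GRCh37. Capitals mark the GC box, GGGCGG, a letter motif searched on both strands (as CCGCCC on the other) with overlapping matches counted once.
CD82, chr11:44565513-44565662, plus strand: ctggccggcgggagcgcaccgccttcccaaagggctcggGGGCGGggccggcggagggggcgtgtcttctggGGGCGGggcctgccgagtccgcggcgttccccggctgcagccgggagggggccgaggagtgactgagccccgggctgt
TSPAN6, first start, chrX:100636807-100636956, minus strand: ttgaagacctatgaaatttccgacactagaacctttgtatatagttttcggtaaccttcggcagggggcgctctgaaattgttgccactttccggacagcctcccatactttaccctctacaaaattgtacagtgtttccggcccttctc
TSPAN6, other start, chrX:100637105-100637254, minus strand: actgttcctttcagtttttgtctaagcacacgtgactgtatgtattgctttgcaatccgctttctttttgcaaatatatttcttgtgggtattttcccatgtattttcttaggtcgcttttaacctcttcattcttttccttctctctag
TSPAN5, chr4:98658612-98658761, minus strand: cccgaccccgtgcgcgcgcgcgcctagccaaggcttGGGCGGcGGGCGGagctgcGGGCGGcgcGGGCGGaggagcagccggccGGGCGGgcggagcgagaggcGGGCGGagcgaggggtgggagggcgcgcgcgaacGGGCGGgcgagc

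The CD82 window held 2 GC boxes at a GC content of 79.3%, the TSPAN5 window 7 at 84.7%, and the TSPAN6 windows 0 at 46.0% and 36.0%. The motif occurred in 36.8% of the 35116 promoter windows of the same length. Of the 10 genes, 6 had entries in the promoter table, 19 in all; those not matched were CD81, CD151, TSPAN3 and TSPAN7. A match is a run of letters and not a measured site.

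TSPAN3 was the member higher in Nterm/Nterm in both assays. It had RNA levels of 215, 211 and 215 CPM in wt/wt and 234, 228 and 243 CPM in Nterm/Nterm, and footprint levels of 201, 194 and 215 CPM in wt/wt and 236, 247 and 236 CPM in Nterm/Nterm. Every Nterm/Nterm library was above every wt/wt library in both assays. The log2 change was 0.14 ± 0.04 in RNA (adjusted p = 0.0347) and 0.24 ± 0.07 in footprints (adjusted p = 0.0231). The RNA call was lost without any 1 of wt/wt replicates 1, 2 and 3 or Nterm/Nterm replicates 1 and 3, at adjusted p between 0.0657 (wt/wt replicate 3) and 0.151 (wt/wt replicate 2). The footprint call was lost without wt/wt replicates 1 or 2 or Nterm/Nterm replicates 1 or 2, at adjusted p between 0.0566 (Nterm/Nterm replicate 1) and 0.0959 (wt/wt replicate 2).

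TSPAN7, the member tied to glutamate receptor traffic, had RNA levels of 190.1, 192 and 202 CPM in wt/wt and 194, 182 and 203 CPM in Nterm/Nterm, which overlapped fully (log2 change -0.01 ± 0.05, adjusted p = 0.903). Its footprints were at 34.0, 35.7 and 38.9 CPM in wt/wt and 45.7, 41.2 and 41.2 CPM in Nterm/Nterm. All 3 Nterm/Nterm libraries were above the wt/wt ones, by a log2 change of 0.24 ± 0.08 that did not pass (adjusted p = 0.0559). It passed without wt/wt replicate 3 (adjusted p = 0.0346).

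TSPAN14 and TSPAN5, which belong to the ADAM10-escorting subgroup, stayed short of the threshold in both assays. TSPAN14 RNA stood at 138, 144 and 129 CPM in wt/wt and 122, 130.3 and 122 CPM in Nterm/Nterm, with 1 crossing between the groups (log2 change -0.13 ± 0.05, adjusted p = 0.0875). It passed without wt/wt replicate 3 (adjusted p = 0.0343). Its footprints, at 92.2, 98.9 and 94.5 CPM in wt/wt and 96.5, 104 and 93.9 CPM in Nterm/Nterm, overlapped (log2 change 0.04 ± 0.07, adjusted p = 0.733). TSPAN5 RNA was at 91.6, 94.7 and 99.6 CPM in wt/wt and 97.5, 98.4 and 101 CPM in Nterm/Nterm (log2 change 0.06 ± 0.05, adjusted p = 0.437). TSPAN5 footprints were at 65.8, 59.0 and 63.7 CPM in wt/wt and 68.7, 63.4 and 69.6 CPM in Nterm/Nterm (log2 change 0.10 ± 0.07, adjusted p = 0.395). In both assays the TSPAN5 groups overlapped.

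The counts behind these levels ran from 175 to 7923 per library in RNA and from 214 to 5443 in footprints. Counting error alone is 7.56% at the lowest RNA count and 1.12% at the highest, and 6.84% and 1.36% in footprints. The levels are not divided by transcript length, so no order of abundance between genes is drawn from them. Among the 3 Nterm/Nterm RNA libraries, replicate 3 gave the lowest level for 7 of the 10 genes; among the 3 Nterm/Nterm footprint libraries, replicate 2 gave the highest for 7 and replicate 3 the lowest for 6.

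The step from RNA to footprints can be read gene by gene. The footprint log2 change was above the RNA log2 change in 10 of 10 genes: 5 were below 0 in RNA and above 0 in footprints (CD63, CD81, CD151, TSPAN7 and TSPAN14), 3 were below 0 in both (CD9, CD82 and TSPAN6), and 2 were above 0 in both (TSPAN3 and TSPAN5). Some of these values are near 0 and changed sign with 1 library left out: the footprint change of CD151 in 3 such fits, that of CD9 in 2 and that of TSPAN14 in 1, and the RNA change of TSPAN7 in 2. The difference between these changes is the change in translational efficiency, the footprint level relative to RNA. In edgeR it is the assay-by-genotype interaction term of a fit to the 12 libraries. The log2 change in translational efficiency was 0.32 ± 0.09 for CD63 and 0.29 ± 0.08 for CD81 (adjusted p = 0.765 for both), 0.28 ± 0.13 for CD9, 0.25 ± 0.09 for TSPAN7, 0.23 ± 0.08 for CD151, 0.23 ± 0.20 for CD82 and 0.18 ± 0.08 for TSPAN14. It was 0.11 ± 0.11 for TSPAN6, 0.10 ± 0.07 for TSPAN3 and 0.05 ± 0.08 for TSPAN5.

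**Figure D2:**
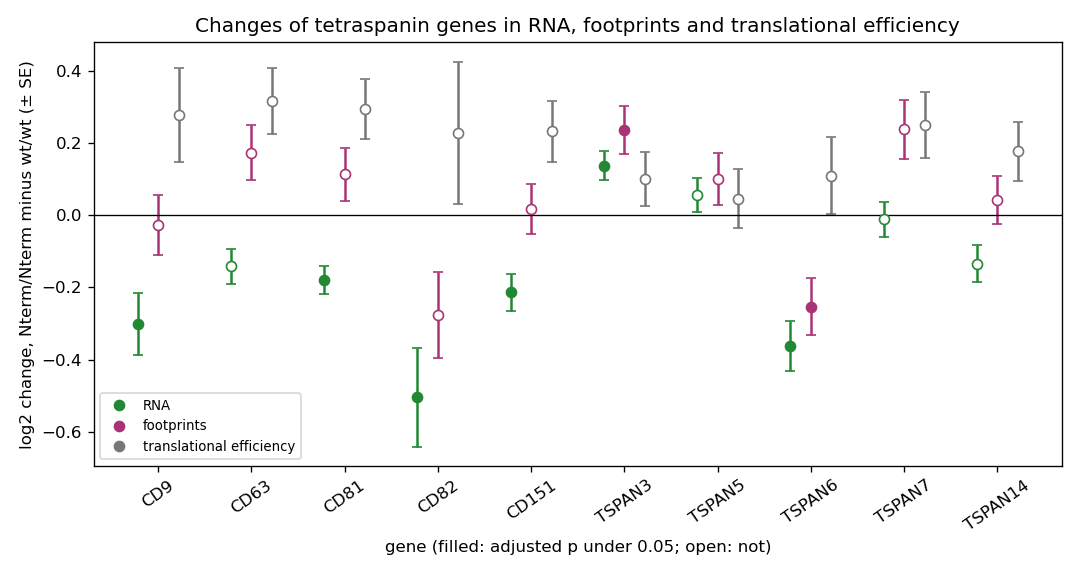
Log2 change, Nterm/Nterm minus wt/wt, with its SE, for RNA (green), footprints (purple) and translational efficiency (grey) of each tetraspanin; filled points have an adjusted p under 0.05. Filled points are 6 in RNA, 2 in footprints and 0 in translational efficiency, where all 10 values lie above 0.

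Of the 10 genes, 0 passed the edgeR test of translational efficiency, in which 0.0203% of all transcripts tested (3 of 14786) were called. An unadjusted p under 0.05 with a higher value was seen for 6 of the 10 genes (CD9, CD63, CD81, CD151, TSPAN7 and TSPAN14), against 2.89% of all transcripts tested. The median over the 10 genes was 0.23, and over all transcripts tested 0.013. DESeq2, which left most transcripts without an adjusted p, called CD63 (adjusted p = 0.0302) and CD81 (adjusted p = 0.0248) among the 740 transcripts to which it gave one, of which 5.14% were called higher. All 38 transcripts called in that run were higher. The other 8 members had no adjusted p in it. As the genes were proposed with these results known, the shared direction is a description and no evidence about the family.

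In the authors' deposited table, translational efficiency is a ratio of footprints to RNA within a transcript. The genes are ordered below by these ratios as deposited. How far that order reflects translation, and how far the assignment of reads to transcripts, was not tested. The wt/wt means in the authors' deposited table, with the SDs given there, were 0.180 ± 0.00697 for TSPAN7, 0.638 ± 0.0462 for TSPAN5, 0.672 ± 0.0334 for TSPAN14, 0.919 ± 0.0383 for TSPAN3 and 1.04 ± 0.103 for CD63. They were 1.36 ± 0.160 for CD82, 1.37 ± 0.0971 for CD81, 1.46 ± 0.0787 for TSPAN6, 1.54 ± 0.120 for CD151 and 1.64 ± 0.170 for CD9. The table's median over 10932 transcripts was 1.11. TSPAN7 was more than 1 SD below its nearest neighbour, at percentile 4.05 of the authors' deposited table, while CD9 was at percentile 76.3. TSPAN5 and TSPAN14 differed by less than the larger of their SDs, as did each neighbouring pair from CD82 to CD9, so those orders are not larger than the spread. TSPAN3 and CD63 differed by more than either SD.

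**Figure D3:**
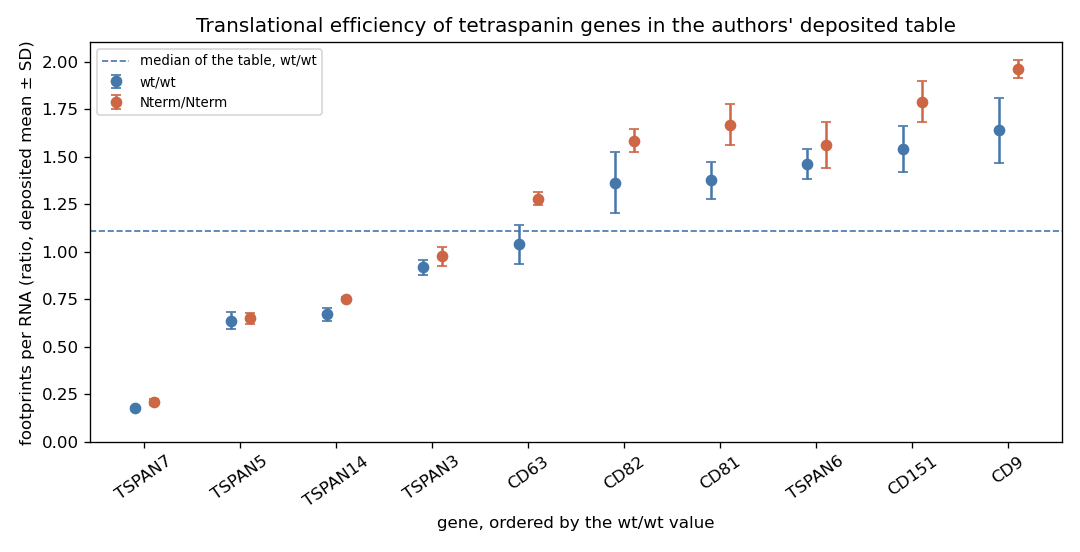
Footprints per RNA in the authors' deposited table (vertical axis from 0; points are the deposited means and bars the deposited SDs), for wt/wt in blue and Nterm/Nterm in orange, with genes ordered by the wt/wt value and the wt/wt median of the table as a dashed line. TSPAN7 is lowest at 0.180 in wt/wt and CD9 highest at 1.64; each Nterm/Nterm mean is above its wt/wt mean.

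The ratio of Nterm/Nterm to wt/wt in the authors' deposited table was above 1 for all 10 genes, and for 50.2% of the transcripts there. It was 1.23 for CD63, 1.21 for CD81, 1.20 for CD9, 1.18 for TSPAN7, 1.16 for CD82 and CD151, 1.12 for TSPAN14, 1.07 for TSPAN6, 1.06 for TSPAN3 and 1.02 for TSPAN5. CD63 went from 1.04 to 1.28 and TSPAN7 from 0.180 to 0.212, and TSPAN7 was the lowest of the 10 in both genotypes. Unadjusted p-values in the authors' deposited table were under 0.05 for 4 of the 10 genes (CD63, CD81, TSPAN7 and TSPAN14), against 4.67% of the table.

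Across the 12 libraries, with each assay centred on its own mean, CD63 and CD81 tracked each other: among 10873 named transcripts, the log2 levels most like those of CD63 were those of CD81 (Pearson r 0.916), AMOTL2 (0.913) and SURF4 (0.912). The levels most like those of CD81 were those of RPL8 (0.978), RPS28 (0.943) and RPLP0 (0.943), all ribosomal proteins. Within the family, CD63 had r values of 0.786 with CD151, 0.738 with TSPAN14, 0.676 with CD9, 0.444 with TSPAN7, 0.344 with TSPAN3, 0.270 with CD82, 0.191 with TSPAN6 and -0.0979 with TSPAN5. These 12 points share genotype, scaling and depth, and the values are descriptions.

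Of 23 other tetraspanins listed, 9 had a named transcript, and all 9 of these were tested. In RNA, 3 of the 9 were lower (TSPAN11, TSPAN9 and TSPAN18) and 0 higher, with a median log2 change of -0.09. TSPAN11 fell from 26.9, 25.8 and 24.4 CPM in wt/wt to 21.1, 20.3 and 18.3 CPM in Nterm/Nterm (log2 change -0.37 ± 0.08, adjusted p = 0.00706). TSPAN9 changed by -0.32 ± 0.08 and TSPAN18 by -0.26 ± 0.06 on the log2 scale (adjusted p = 0.0156 and 0.0181). In footprints, TSPAN13 rose, from 215, 215 and 245 CPM to 264, 264 and 262 CPM (log2 change 0.23 ± 0.07, adjusted p = 0.0340), with the other 8 not passing and a median of -0.10. Of all transcripts tested, 17.9% were called in RNA and 13.3% in footprints. Translational efficiency had 0 calls and a median of 0.12. The RNA count was 1 without wt/wt replicate 1 or 2, and the footprint count was 0 without wt/wt replicate 1 or 2 or Nterm/Nterm replicate 2 or 3.

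Partners of tetraspanins, which include laminin-binding integrins, immunoglobulin-family proteins and ADAM proteases, were measured for 21 of 23 listed genes. In RNA 8 of the 21 were lower and 0 higher, with a median log2 change of -0.16. The 6 with the smallest adjusted p were IFITM3, an interferon-induced membrane protein (-0.83 ± 0.13), PTGFRN, a direct partner of CD9 and CD81 (-0.45 ± 0.07), the integrin subunits ITGA3 (-0.41 ± 0.07), ITGB4 (-0.34) and ITGB1 (-0.25 ± 0.06), and the Wnt co-receptor LRP5 (-0.28). ADAM10, named after its values were seen because TSPAN5 and TSPAN14 escort it, was lower by -0.14 ± 0.04 (adjusted p = 0.0379). Its footprint change did not pass (-0.15 ± 0.07, adjusted p = 0.175). In footprints 6 of the 21 were lower and 0 higher: IFITM3 (-0.57), PTGFRN (-0.43), ITGA3 (-0.37), ITGB4 (-0.31), CD44 (-0.28), a hyaluronan receptor, and the protease ADAM17 (-0.22), with a median of -0.15. The shares called lower over all transcripts tested were 10.6% in RNA and 8.91% in footprints. Translational efficiency had 0 calls and a median of 0.03. The RNA count was 3 without wt/wt replicate 1 and 4 without wt/wt replicate 2; the footprint count was 3 without wt/wt replicate 2 or Nterm/Nterm replicate 3.

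Genes of the compartments that CD63 passes through were read as a vesicle list and a lysosome list. Of 30 tested genes for vesicle release and the ESCRT machinery, which buds vesicles into endosomes, 1 was called in RNA, the cell-surface proteoglycan SDC4 (-0.44 ± 0.08, adjusted p = 0.00517). In footprints the proteoglycan SDC2 was lower (-0.33 ± 0.09) and the ESCRT subunit SNF8 higher (0.23 ± 0.07), and the list medians were -0.02 in RNA and 0.04 in footprints. Over all transcripts tested, 17.9% were called in RNA and 13.3% in footprints, in either direction. Of 28 late endosome and lysosome genes, 14 were lower and 0 higher in RNA, with a median log2 change of -0.21. Among them were the protease TPP1 (-0.49 ± 0.06), the progranulin gene GRN (-0.42 ± 0.06), the protease gene CTSB (-0.43 ± 0.07) and the acid glucosidase gene GAA (-0.46). In footprints 8 of the 28 were lower, with TPP1 at -0.46 ± 0.07, and 1 was higher, the calcium channel gene MCOLN1 (0.29 ± 0.08), with a median of -0.17. Translational efficiency had 0 calls in either list, with medians of 0.07 in both. The lysosome count in RNA was 7 without wt/wt replicate 1 or 2, and the 9 footprint calls were 4 without wt/wt replicate 2 or Nterm/Nterm replicate 3 and 5 without wt/wt replicate 1 or Nterm/Nterm replicate 1; the 2 vesicle calls in footprints were 0 without Nterm/Nterm replicate 1 and 1 without wt/wt replicate 1 or 2 or Nterm/Nterm replicate 2 or 3.

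**Figure D4:**
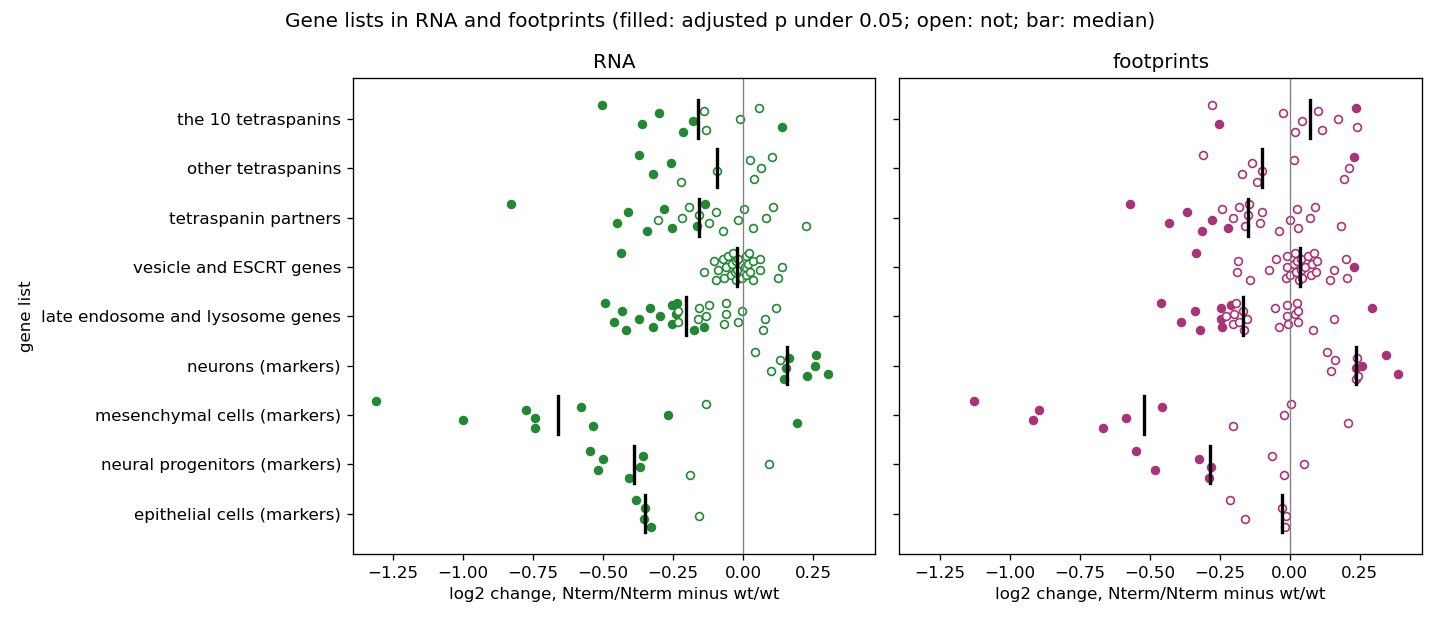
Log2 change, Nterm/Nterm minus wt/wt, of each tested gene (points; filled where the adjusted p is under 0.05) by gene list in RNA (left) and footprints (right), with the list median as a bar. The median of the 10 tetraspanins is -0.16 in RNA and 0.07 in footprints, and that of the mesenchymal markers -0.66 and -0.52.

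In RNA, most tested markers of mesenchymal, epithelial and neural progenitor cells were called lower in Nterm/Nterm, as were 5 of the 10 tetraspanins. In footprints, 1 of the 10 tetraspanins was called lower, TSPAN6. Of all transcripts tested, 10.6% were called lower in RNA and 8.91% in footprints. Of 10 tested mesenchymal markers (17 listed), 8 were lower and 1, THY1, which neurons also express, higher in RNA, with a median log2 change of -0.66; their summed RNA level was 4683 to 5728 CPM in wt/wt and 3153 to 4102 CPM in Nterm/Nterm. In footprints 6 were lower, with a median of -0.52 and summed levels of 5933 to 7146 CPM in wt/wt and 4460 to 5926 CPM in Nterm/Nterm. The listed mesenchymal markers COL3A1, LUM, DCN, PDGFRA, PDGFRB, POSTN and TWIST1 had no named transcript and were not used here. Of 5 epithelial markers, which share EPCAM with the partner list, 4 were lower in RNA and 0 in footprints, with medians of -0.35 and -0.03 and a median change in translational efficiency of 0.31. Their summed RNA level was 5974 to 6784 CPM in wt/wt and 4458 to 5587 CPM in Nterm/Nterm, and their summed footprint level 3733 to 4500 CPM and 3571 to 4491 CPM. Neural progenitor markers were lower for 6 of 8 in RNA (median -0.39) and 5 of 8 in footprints (median -0.28). Neuron markers were higher for 7 of 10 in RNA (median 0.16) and 4 of 10 in footprints (median 0.24). The shares called higher over all transcripts tested were 7.25% in RNA and 4.36% in footprints. Among the Nterm/Nterm RNA libraries, replicate 3 had the lowest summed level of mesenchymal, epithelial, progenitor and pluripotency markers. The same held for the partner, vesicle, lysosome and other tetraspanin lists, whereas its summed neuron marker level was the highest. It gave the lowest level for 7 of the 10 tetraspanins and the highest for 3. Whether the cell type markers have a part in the tetraspanin differences was not tested. In such bulk samples, fewer cells of a type and less RNA per cell cannot be told apart.

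Of the remaining marker lists, 3 of 4 tested pluripotency markers were lower in RNA, of which SOX2 is also among the lower progenitor markers and CDH1 among the lower epithelial ones, with summed levels of 601 to 669 CPM in wt/wt and 439 to 520.2 CPM in Nterm/Nterm. CSF1R, the only microglial or blood marker with a named transcript, was lower in RNA and in footprints (-0.55 ± 0.09 and -0.53 ± 0.10), at a summed RNA level of 19.2 to 21.5 CPM in wt/wt and 12.3 to 15.2 CPM in Nterm/Nterm. Over all transcripts tested, 10.6% were called lower in RNA and 8.91% in footprints. The 2 tested astrocyte markers gave 0 calls, and markers of the oligodendrocyte lineage had no named transcript and were not used here.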

How the data were processed

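Per the labels, 12 libraries of human induced neurons were made: 3 RNA-seq and 3 Ribo-seq libraries for each of the LLPH genotypes wt/wt and Nterm/Nterm. The authors deposited whole-number counts per transcript, not normalized; the submitters' processing notes name Salmon 1.4.0, Bowtie2 2.3.4.3, cutadapt 2.4, UMI-tools 1.0.1, limma, edgeR and build GRCh37, with no roles. The treatment of reads shared between transcripts, such as those of paralogs, was not given in the sources used here. The authors' deposited table of translational efficiency holds, per the file headers, mean ratios of footprints to RNA with their SDs, the ratio between genotypes and an unadjusted p-value; its least covered transcript had 1016 counts in all. Gene names came from that table, and where it had none, from a separate list of gene names matched by gene identifier.

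From the counts, edgeR 4.0.16 (R 4.3.3) was run with TMM scaling, filterByExpr, the quasi-likelihood F test, two-sided, and Benjamini-Hochberg adjustment over all transcripts tested, at a threshold of 0.05. RNA (6 libraries) and footprints (6 libraries) were fitted separately, and translational efficiency as an assay-by-genotype interaction in the 12 libraries together. TMM scaling is relative to most transcripts, so a change shared by all of them would not show. The SE is the log2 change divided by the square root of F. The scripts were tested on simulated data with known changes. Those changes were larger than any seen for the tetraspanins, so the test does not show whether changes of their size are recovered. CPM are counts scaled to a library of 1000000 with TMM factors; likeness used log2 CPM with a prior count of 2.

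All members were described. Of the other lists, genes called in a comparison were named, at most 6 per list and comparison by the smallest adjusted p. ADAM10 was named in addition. Members and lists were chosen with earlier results of these data known. Alternatives were other scaling (RLE), DESeq2 1.42.0, limma-voom (limma 3.58.1), no low-count filter, the replicate number as a block, leaving out each library, and the genotype tag in place of the title for Ribo-seq samples. The same replicate numbers in different groups are not stated to mark a shared culture or day.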

Additional observations from a re-analysis of the deposited data

How the results depend on the processing

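Scaling by RLE and limma-voom left the member calls at 6 in RNA, 2 in footprints and 0 in translational efficiency. Without the low-count filter, CD63 was added in RNA (7 called) and TSPAN7 in footprints (3 called). DESeq2 called 6 members in RNA, 1 in footprints (TSPAN3) and 2 in translational efficiency (CD63 and CD81). Leaving out 1 library at a time gave 1 to 7 calls in RNA and 0 to 3 in footprints; the lowest RNA counts were 1 without wt/wt replicate 1 and 2 without wt/wt replicate 2, and the footprint count was 0 without wt/wt replicate 1 or 2. Calls over all transcripts were also fewer in these fits. In RNA they were 841 without wt/wt replicate 1 and 964 without wt/wt replicate 2, in place of 2624. In footprints they were 954 without wt/wt replicate 1 and 978 without wt/wt replicate 2, in place of 1800. Fits with 1 library left out have fewer libraries, and a further cause was not tested. Translational efficiency stayed at 0 calls in each of them. When Ribo-seq samples were grouped by their genotype tag, 3 members were called in translational efficiency (CD82 and TSPAN6 higher, TSPAN3 lower) along with 4150 transcripts in all, and footprint changes had the opposite sign. Values near 0 changed sign with 1 library left out: in footprints CD151 (-0.0347 to 0.0603), CD9 (-0.112 to 0.0661) and TSPAN14 (-0.00143 to 0.0734), in translational efficiency TSPAN5 (-0.00396 to 0.0856), and in RNA TSPAN7 (-0.0513 to 0.0312); none of these passed the test.

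With the replicate number as a replicate block, 8 members were called in RNA (CD63 and TSPAN14 added), 3 in footprints (TSPAN7 added) and 0 in translational efficiency; over all transcripts the calls were 4504 in place of 2624 in RNA, 2317 in place of 1800 in footprints and 5 in place of 3 in translational efficiency. Under the same block, RNA calls were 14 in place of 8 for tetraspanin partners and 5 in place of 1 for vesicle genes, and footprint calls of other tetraspanins were 2 in place of 1, as also without the low-count filter. DESeq2 called 1 vesicle gene in place of 2 in footprints. Deviations of same-numbered libraries from their group means correlated at 0.00532 to 0.194, above 0.1 in 6 of 18 pairs, and 11 of 12 libraries correlated best with one of their own number, which is a hint from the data and not from the design. CD82 had the lowest counts of the members, down to 175 in RNA, where counting error alone is 7.56%. Its Nterm/Nterm RNA levels had a mean of 10.6 CPM and an SD of 2.33 CPM. How far depth limited the CD82 results was not tested.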
